A study of Homo sapiens with 3 samples.

Results

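The genes that mark glial, neural stem and mesenchymal identity were NES, VIM, GFAP, S100B, OLIG2, SOX2, SOX9, CHI3L1, PROM1 and CDH2, and they were followed in 2 glioblastoma clones on 2-color microarrays. They were taken as the array probes whose RefSeq transcript carries 1 of these 10 symbols. All 10 genes were found, with 13 probes of the 58201 on the array, among 25006 genes that could be named. U87 (U-87MG) is an established line of glioblastoma, the most malignant astrocytic brain tumor. U87WT 5 is a stable G418-selected clone that carries GFP-IGF1R, the wild-type type 1 IGF receptor fused to GFP, which can enter the nucleus. U87Mut 5 carries GFP-IGF1R1025x-1100x-1120x, a mutant fusion labeled as non-nuclear. Each is 1 clone, both keep the receptor of the parental cells, and no untransfected U87 sample was analysed here. The conditions were FBS-free medium for 24 h, 50 nM IGF1 for 24 h, and IGF1 with OSI906, an inhibitor of the IGF1 and insulin receptors. The title of the last sample gives 0.5 µM OSI906 and its medium field gives 500 µM.

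There was 1 array for each condition. On all 3 arrays, U87WT RNA was labeled with Cy5 and U87Mut RNA with Cy3, so that clone and dye cannot be told apart, and no condition was repeated. The number of arrays limits the precision: the clone difference has an error taken over 3 arrays of different conditions, and a change between conditions has none. By the marks of the scanner software, 50.1% to 52.8% of probes were well above background in Cy5 and Cy3 alike. A probe counted in a channel where any of its spots was marked. The median local background was 21 or 22 in scanner units. The array of IGF1 held 572 spots marked as not uniform, with local Cy5 backgrounds up to 66985, against 384 and 5 on the other arrays. The background was therefore fitted without such spots, none of which belongs to the 13 probes. Log2 ratios are of U87WT over U87Mut, after loess within arrays and Aquantile between them. As a yardstick, the ratio of a single probe varied between the FBS-free and OSI906 arrays with an SD of 0.144 per array (log2), over 27686 probes above background, a spread that holds any true change too.

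Identity genes name the cell states that gliomas resemble. VIM, NES and GFAP encode intermediate filament proteins: nestin marks neural progenitors, GFAP marks astrocytes, and vimentin is found in immature glia and in mesenchymal cells. SOX2, SOX9 and OLIG2 are transcription factors of neural stem cells and of the astrocyte and oligodendrocyte lineages, and PROM1 (CD133) is a surface protein used to sort stem-like glioma cells. CHI3L1 (YKL-40) is a secreted chitinase-like glycoprotein and a marker of the mesenchymal class of glioblastoma, S100B is a calcium-binding protein of astrocytes, and CDH2 is N-cadherin, the adhesion molecule of neural and mesenchymal cells.

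The results turn on CHI3L1, which differed most between conditions, and on VIM, which differed most between the clones. For these genes the promoter is shown from 250 bases before to 50 bases after the start of transcription (RefSeq, GRCh38.p14), 5′ to 3′ on the strand of the gene, with capitals for TATAAA in that of CHI3L1 and for GGGCGG in that of VIM. CHI3L1 lies at chr1:203186655-203186954 on the minus strand, and VIM at chr10:17227991-17228290 on the plus strand.
CHI3L1: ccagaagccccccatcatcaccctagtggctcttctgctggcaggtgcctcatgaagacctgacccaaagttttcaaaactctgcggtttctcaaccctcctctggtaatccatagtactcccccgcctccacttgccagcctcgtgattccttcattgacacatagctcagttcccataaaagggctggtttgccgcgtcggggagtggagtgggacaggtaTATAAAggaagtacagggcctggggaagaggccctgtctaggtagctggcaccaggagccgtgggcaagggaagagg
VIM: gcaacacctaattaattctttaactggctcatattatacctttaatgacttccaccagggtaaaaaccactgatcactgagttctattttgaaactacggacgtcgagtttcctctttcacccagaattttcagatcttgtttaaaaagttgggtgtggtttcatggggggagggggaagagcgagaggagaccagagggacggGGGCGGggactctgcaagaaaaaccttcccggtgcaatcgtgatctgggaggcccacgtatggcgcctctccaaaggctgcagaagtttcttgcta
TATAAA stood 27 to 22 bases before the start of CHI3L1, and the match in VIM stood 46 to 41 bases before that of VIM. Searched on both strands were the TATA box as TATAAA, the GC box as GGGCGG, the AP-1 site as TGACTCA, the FOXO site as GTAAACA and the E-box as CACGTG, and no other match was found in these windows. Of 35116 promoters of this length, 11.5% held the letters of the TATA box, 45.0% those of the GC box, 4.95% AP-1, 3.42% FOXO and 7.26% the E-box. The matches did not overlap, and they describe the letters only. The promoter of CHI3L1 had 56.0% G or C and that of VIM 48.0%, against a median of 58.7%.

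Of the 10 genes, 6 exceeded background in either clone on every array (VIM, CHI3L1, CDH2, NES, OLIG2 and SOX9), 3 were at background in every channel (GFAP, SOX2 and PROM1), and S100B was above it in U87WT only, on 2 of the 3 arrays. Among all named genes, 15352 of 25006 (61.4%) were above background everywhere. OLIG2 and SOX9 passed this mark narrowly, at a spot brightness of 30 to 37, near the median spot of the arrays (30.5 to 35).

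**Figure D1:**
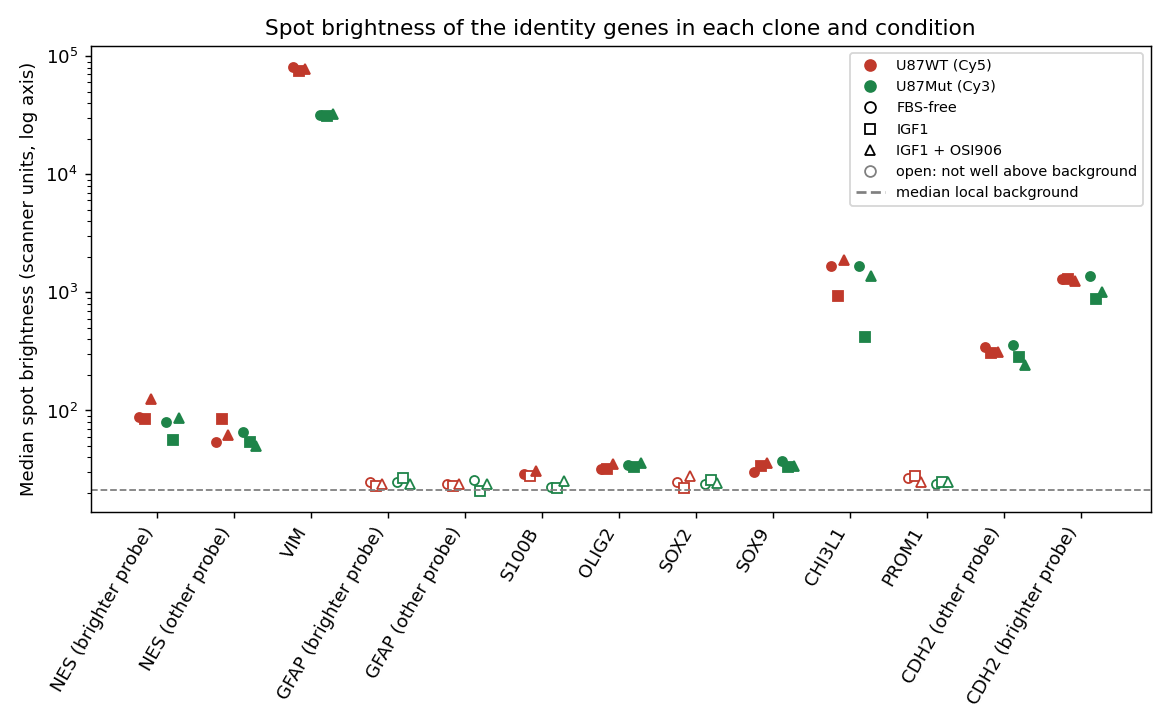
Median spot brightness (scanner units, log axis) of the 13 probes of the 10 identity genes, for U87WT (Cy5, red) and U87Mut (Cy3, green) in FBS-free medium (circles), IGF1 (squares) and IGF1 with OSI906 (triangles); each point is 1 spot of 1 channel, open points are not well above background and the dashed line is the mean of the median local backgrounds. VIM sits at 31408 or more in every channel, CHI3L1 dips in IGF1 in both clones, and GFAP, SOX2 and PROM1 lie near the background.

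VIM was the brightest of these spots. In U87WT its brightness was 80811 in FBS-free medium, 74685 in IGF1 and 78254 in IGF1 with OSI906. In U87Mut it was 31596, 31408 and 32546 in the same order. Before normalization, after subtraction of local background, U87WT stood 2.56-, 2.38- and 2.41-fold over U87Mut, with the dye difference still in these values. After normalization the log2 ratio was 1.15, 0.29 and 0.77, higher in U87WT on all 3 arrays, with a mean of 0.74 ± 0.17 (SE over 3 arrays). By limma with Benjamini-Hochberg adjustment over all probes this did not pass 5% (adjusted p = 0.0750). The call depended on the processing: adjusted p was 0.0457 with the background fitted on all spots, 0.0224 with only probes above background tested, and 0.0086 without the array of IGF1, within a range of 0.0086 to 0.410 over all alternatives. The value in IGF1 depended on it most, at 0.29 here, 0.92 with the background fitted on all spots, 1.12 with the median in place of loess and 0.03 with the signals of the scanner software. On each array, 72 to 112 other probes were as bright as VIM or brighter, and what this means for the correction was not tested.

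NES, the other progenitor filament, was dim. Its brighter probe gave 88, 85 and 126 in U87WT and 80, 56.5 and 86 in U87Mut, in FBS-free medium, IGF1 and IGF1 with OSI906. The log2 ratio was 0.12, 0.16 and 0.39, with a mean of 0.23 ± 0.06 (SE, 3 arrays; limma, adjusted p = 0.127). The second NES probe read 54, 84 and 61.5 in U87WT and 66, 54 and 50 in U87Mut, and its ratios of -0.16, 0.20 and 0.14 changed sign between arrays. The probes of NES thus disagreed in FBS-free medium. GFAP, the astrocyte filament, had 2 probes for different transcripts, and every reading lay between 21 and 27 in either clone. No level of GFAP was measured above background in these glioma cells, and no fold is given.

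S100B read 29, 28 and 31 in U87WT and 22.5, 22 and 25.5 in U87Mut. The U87WT spots were above background in FBS-free medium and in IGF1 with OSI906, whereas no U87Mut spot was. U87WT was the brighter on each array, with the dye difference still in these readings. In this processing a bound put U87WT 1.10-fold higher, and the mean ratio did not pass 5% (limma, adjusted p = 0.0803). This bound sets the mean normalized level of U87WT over 3 arrays against the higher, on each array, of the U87Mut spot and the lowest signal called above background. It takes in the array of IGF1, where the U87WT spot was not above background either, so it is no strict minimum. Nor is it a floor for other processing: the mean log2 ratio was 0.14 here, 0.09 with the background fitted on all spots and 0.13 with the median in place of loess. Genes at background in every channel also had small positive mean ratios here, 0.10 for PROM1, 0.05 for GFAP (brighter probe) and 0.03 for SOX2. For PROM1 the ratio was 0.09, 0.09 and 0.10 on the 3 arrays, against 0.15, 0.14 and 0.13 for S100B. The bound therefore does not establish a clone difference of S100B.

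The transcription factors showed no difference that passed the test. OLIG2 read 32, 32 and 35 in U87WT and 34.5, 33 and 36 in U87Mut, and its log2 ratios were -0.06, -0.10 and -0.03 (limma, adjusted p = 0.418). SOX9 read 30, 34 and 36 in U87WT and 37, 33 and 34 in U87Mut, with ratios of -0.15, -0.09 and -0.00 (limma, adjusted p = 0.402). Ratios of such dim spots depend on the background offset: SOX9 in FBS-free medium was -0.15 here, -0.49 with an offset of 0, -0.31 without background correction and -1.01 with the scanner software's signals, and OLIG2 in IGF1 was -0.10, -0.38, -0.21 and -0.43. No alternative brought the mean ratio of either gene past the test. SOX2, the stem cell factor, stayed between 22 and 28 in all channels, and PROM1 between 24 and 28. None of these spots was above background, so their ratios carry no level.

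CHI3L1 gave 1669 in U87WT and 1681 in U87Mut in FBS-free medium. In IGF1 it gave 927 in U87WT and 421 in U87Mut. In IGF1 with OSI906 it gave 1891 in U87WT and 1379 in U87Mut. Thus the clones read alike in FBS-free medium, and U87Mut was the dimmer clone with IGF1. The log2 ratio was 0.03, 0.57 and 0.32 in the same order, with a mean of 0.31 ± 0.11 (SE, 3 arrays; limma, adjusted p = 0.200). The ratio of 0.57 in IGF1 fell to 0.08 with the background fitted on all spots and to 0.02 in the deposited table. It was 0.96 with the median in place of loess and 0.61 with the scanner software's signals.

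CDH2 read 1307, 1294 and 1256 in U87WT and 1388, 878.5 and 1009 in U87Mut with its brighter probe. Its log2 ratio was -0.03, -0.02 and 0.21 (mean 0.05 ± 0.06 SE, 3 arrays; limma, adjusted p = 0.702). The second probe had ratios of 0.01, -0.33 and 0.28 (limma, adjusted p = 0.962). N-cadherin was therefore measured well in both clones, without a clone difference that passed the test by either probe.

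Taking the 10 genes as a group, 0 were called between the clones by limma at 5% (8.43% of all 58174 probes tested were called), and 5 of the 10 had an unadjusted p under 0.05 by limma (VIM, S100B, PROM1, CHI3L1 and NES), as had 21.1% of all probes. Of these 5, PROM1 was at background in all 6 channels and S100B in 4 of 6. The mean log2 ratio of the 6 genes above background had a median of 0.14, against -0.00 over all 15352 such genes. By size, 1 of the 6 was past 0.5 in FBS-free medium (VIM, 12.5% of all such genes), 1 in IGF1 (CHI3L1, 12%) and 1 in IGF1 with OSI906 (VIM, 11.4%). None of the 6 was past 0.5 on all 3 arrays in this processing. VIM was past it on all 3 with the background fitted on all spots (1.17, 0.92 and 0.77). The same held with the median in place of loess (1.12, 1.12 and 1.24) and in the deposited table (1.15, 1.07 and 0.76).

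**Figure D2:**
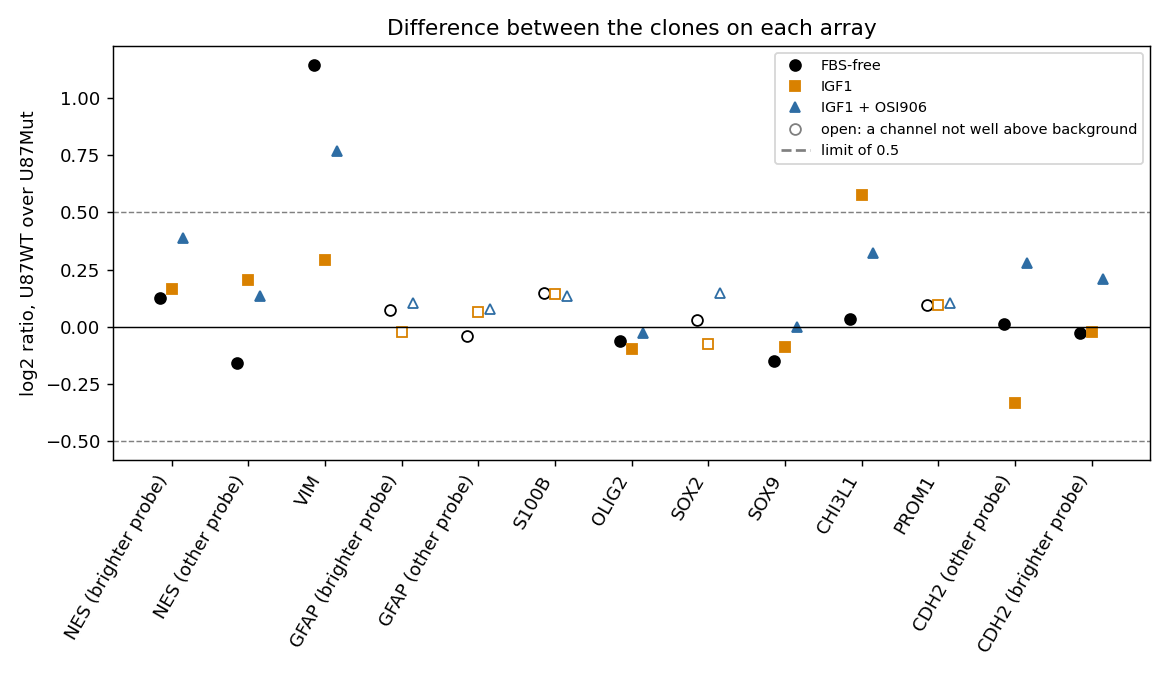
Log2 ratio of U87WT over U87Mut for each of the 13 probes in FBS-free medium (black circles), IGF1 (orange squares) and IGF1 with OSI906 (blue triangles); each point is 1 array, open points have a channel not well above background and dashed lines stand at 0.5 and -0.5. VIM is past 0.5 on 2 arrays and CHI3L1 on the array of IGF1, and the other probes stay within the lines.

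The question of what IGF1 did in each clone was asked of the levels per channel, 1 array against another, which carry no replicate and no test. CHI3L1 was lower in IGF1 than in FBS-free medium in both clones, by -0.87 (log2) in U87WT, 1.83-fold, and by -1.41 in U87Mut, 2.67-fold. With IGF1 and OSI906 it stood 1.21 above the level in IGF1 in U87WT (2.31-fold) and 1.46 above it in U87Mut (2.75-fold), which is 0.34 and 0.05 from the FBS-free level. Without normalization the readings in IGF1 were 1.82-fold and 4.17-fold below those in FBS-free medium, and those with OSI906 were 2.07- and 3.40-fold above IGF1. With the median in place of loess, the change of U87WT with IGF1 was smaller, at -0.55. The directions were the same under each alternative that gives levels per channel. These were 3 other background fits or offsets, no background correction, the median, and scale or no normalization between arrays. The scanner software's signals and the deposited table gave no such levels here. The difference of the response between the clones was not tested.

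Among the 15352 genes above background, 69 (0.449%) fell as far as CHI3L1 or farther from FBS-free medium to IGF1 in U87WT, and 3 (0.0195%) in U87Mut. These counts include CHI3L1 and take only genes that moved in its direction. From IGF1 to IGF1 with OSI906, 60 (0.391%) rose as far as CHI3L1 or farther in U87WT and 10 (0.0651%) in U87Mut, counted in the same way. CHI3L1 thus lay at the far end of the changes in its own direction in either clone.

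**Figure D3:**
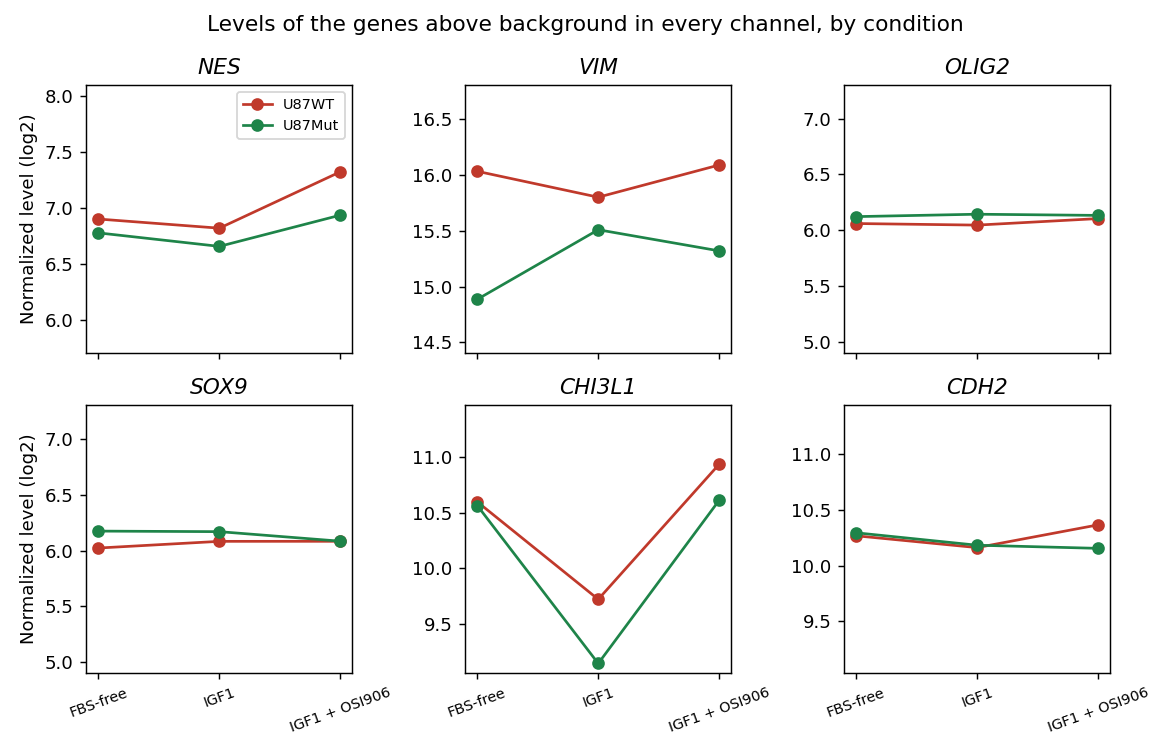
Normalized level (log2) of the 6 identity genes above background in every channel, across FBS-free medium, IGF1 and IGF1 with OSI906, in U87WT (red) and U87Mut (green); each point is 1 channel of 1 array, without replicates, and every panel spans the same range. CHI3L1 dips in IGF1 by 0.87 in U87WT and 1.41 in U87Mut, while OLIG2 and SOX9 stay nearly flat.

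VIM moved the other way in the clones, by -0.23 in U87WT and 0.62 in U87Mut from FBS-free medium to IGF1. Its spot brightness hardly differed between conditions in either clone, and the change in U87Mut was 0.32 with the background fitted on all spots and 0.20 with the median in place of loess. In U87WT the sign turned under these settings, to 0.07 and 0.19. NES stood 0.50 higher with OSI906 than with IGF1 alone in U87WT and 0.28 higher in U87Mut by its brighter probe. Its second probe gave -0.24 and -0.17, so the probes disagreed in direction. By its brighter probe, CDH2 changed by -0.11 in both clones with IGF1. From IGF1 to IGF1 with OSI906 this probe changed by 0.20 in U87WT and -0.03 in U87Mut. The second CDH2 probe gave -0.22 in U87WT and 0.13 in U87Mut with IGF1, then 0.22 and -0.39 with OSI906. With the median in place of loess, the brighter probe changed with IGF1 by 0.25 in U87WT and -0.46 in U87Mut. OLIG2 and SOX9 changed by at most 0.09 in size in either clone in these comparisons, and with an offset of 0 the largest of these changes were 0.21 for OLIG2 in U87WT and -0.34 for SOX9 in U87Mut, both from IGF1 to IGF1 with OSI906.

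From FBS-free medium to IGF1, 1 of the 6 genes was past 0.5 in U87WT (CHI3L1, 4.83% of all such genes) and 2 in U87Mut (CHI3L1 and VIM, 2.53%). From IGF1 to IGF1 with OSI906, 2 were past 0.5 in U87WT (CHI3L1 and NES, 7.4%) and 1 in U87Mut (CHI3L1, 3.05%). These comparisons share the array of IGF1, so that a dim spot there shows in both.

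The genes with the clone ratios most like those of VIM, by the Euclidean distance over the 3 arrays, were SEMA3B-AS1 (0.0517), SNAR-F (0.0934) and DPH6-DT (0.123). Those most like CHI3L1 were FABP3 (0.0331), NANS (0.0438) and SH3PXD2B (0.0583). With 3 arrays, likeness of this kind says little beyond the ratios themselves.

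Other genes of the same cell states were taken from lists and are given as counts of genes above background everywhere that limma called at 5%, set against 11% called higher in U87WT and 10.7% called lower over all 15352 genes. Of the astrocyte genes, 9 of 10 had a named probe, 6 were above background, and 3 were higher in U87WT and 0 lower, with a median log2 ratio of 0.26. SLC1A3, the glial glutamate transporter GLAST, was higher on every array. Its spots gave 4131.5, 2321 and 2851 in U87WT and 1203.5, 384 and 1077 in U87Mut. The log2 ratios were 1.78, 1.95 and 1.25, with a mean of 1.66 ± 0.14 (SE, 3 arrays; limma, adjusted p = 0.00809). Like CHI3L1 it was lower in IGF1 in both clones, by -0.88 in U87WT (-0.54 with the median in place of loess) and -1.05 in U87Mut, and 0.53 and 1.23 higher with OSI906 than with IGF1 alone. NDRG2, a differentiation gene of astrocytes, had a mean ratio of 0.68 (limma, adjusted p = 0.00947), and SLC1A2, the other main astrocytic glutamate transporter, 0.33 (limma, adjusted p = 0.0229). GLUL, the glutamine synthetase of astrocytes, had log2 ratios of -0.45, -0.09 and -0.59 (mean -0.38 ± 0.10 SE, 3 arrays; limma, adjusted p = 0.12) and did not pass.

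Of 10 oligodendrocyte lineage genes, 4 were above background and 1 was higher in U87WT, CNP, at a mean log2 ratio of 0.44; the list's median was 0.04. Of 15 neural stem cell genes, 7 were above background, 1 was higher (MSI2, 0.46) and 2 were lower (PAX6, -0.39, and POU3F2, -0.29), with a median of -0.02. PAX6 and POU3F2 are transcription factors of neural progenitors and MSI2 is an RNA-binding protein. Of 16 other SOX genes, 3 were above background and 1 was higher (SOX13, 0.25), with a median of 0.05.

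The transcription factors of epithelial-mesenchymal transition were measured in full, 6 of 6 above background, with 2 higher in U87WT and 1 lower and a median of 0.15. TWIST1, a basic helix-loop-helix factor of mesoderm, gave 2335.5, 1199.5 and 1195 in U87WT and 1021, 443.5 and 654.5 in U87Mut. U87WT was the brighter on each array, with log2 ratios of 1.21, 0.84 and 0.76 (mean 0.94 ± 0.10 SE, 3 arrays; limma, adjusted p = 0.0119). SNAI2 (Slug) was higher at a mean of 0.59, and TWIST2 was lower at -0.37. From FBS-free medium to IGF1, TWIST1 changed by -1.0 in U87WT and -0.63 in U87Mut.

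Of 18 genes of the mesenchymal class of glioma, all 18 were above background, 2 were higher in U87WT (S100A4, 0.67, and ACTA2, 0.61) and 2 lower (TNC, -0.90, and AXL, -0.57), with a median of -0.00. TNC, the matrix glycoprotein tenascin-C, gave 1087, 1943 and 756.5 in U87WT and 2155, 2159 and 1470 in U87Mut. The clones overlapped across conditions, but U87WT was the dimmer on each array, with log2 ratios of -0.91, -0.77 and -1.03 (mean -0.90 ± 0.06 SE, 3 arrays; limma, adjusted p = 0.00489). With IGF1 its level changed by 0.71 in U87WT and 0.57 in U87Mut, the opposite direction to CHI3L1, and with OSI906 by -1.05 and -0.80 from there; with the median in place of loess, the change in U87Mut with IGF1 was 0.19. The members of this list that passed the test thus pointed both ways.

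Among 13 other intermediate filament genes and their partners, 7 were above background and 1 passed, LMNB1 (lamin B1 of the nuclear envelope), lower in U87WT with ratios of -1.48, -0.99 and -1.03 (mean -1.16 ± 0.11 SE, 3 arrays; limma, adjusted p = 0.00913), and the list's median was -0.00. Of 11 cadherins and catenins, 6 were above background, CDH13 was higher (0.59) and CDH4 lower (-0.34), with a median of -0.07. Of 10 listed S100 genes, a part of that family chosen without S100B, 9 had a named probe. Of these, 7 were above background, 5 were higher in U87WT (S100A3, S100A4, S100A6, S100A10 and S100A13) and 0 lower, with a median of 0.37. The largest was S100A3, with ratios of 0.72, 0.94 and 0.95 (mean 0.87 ± 0.06 SE, 3 arrays; limma, adjusted p = 0.00547). S100A11 and S100A16 had mean ratios of -0.43 and -0.27 and did not pass.

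**Figure D4:**
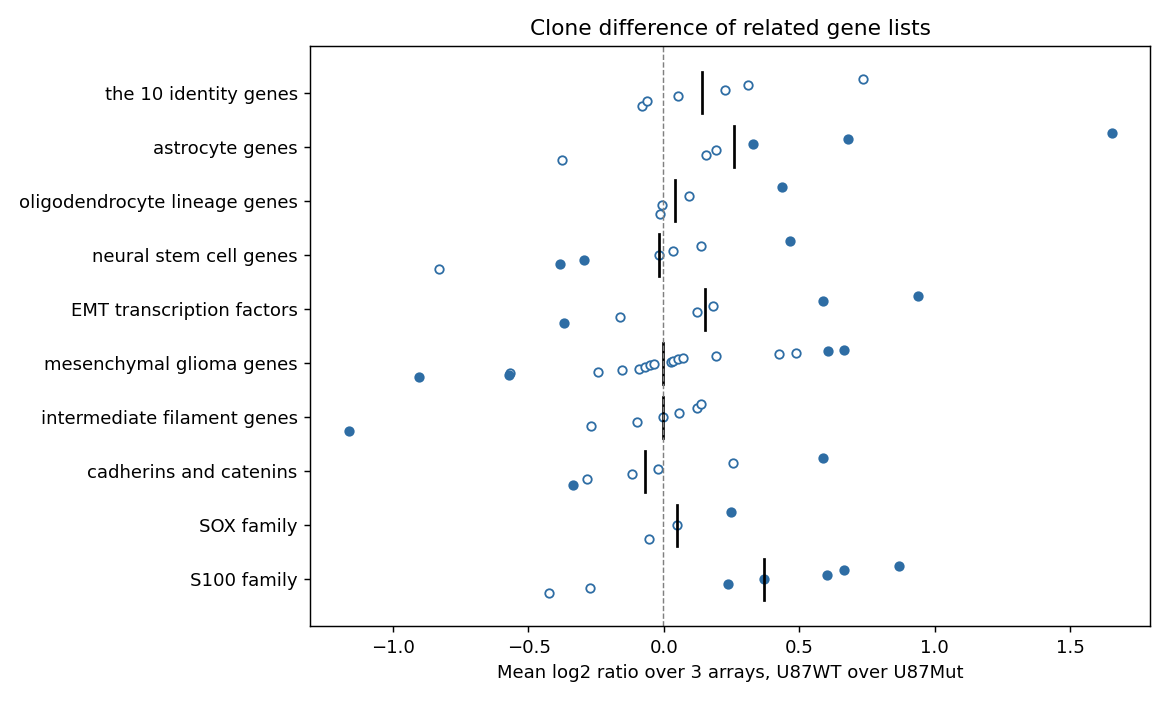
Mean log2 ratio of U87WT over U87Mut over 3 arrays for genes above background in every channel, in rows for the 10 identity genes and 9 related lists; each point is 1 gene, filled where limma's adjusted p is under 0.05, black bars are list medians and the dashed line is the median of all named genes. No identity gene is filled, the 10 listed S100 genes (row S100 family) have a median of 0.37 and the mesenchymal list lies on both sides of 0.

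Markers of other cell types were read in the same way. Of 8 neuron markers, 5 were above background and 1 passed, SNAP25, a synaptic vesicle fusion protein, higher in U87WT with ratios of 1.06, 1.02 and 0.91 (mean 1.00 ± 0.04 SE, 3 arrays; limma, adjusted p = 0.00338). Of the microglia (1 of 5 above background), endothelium (2 of 5) and epithelium (2 of 5) markers, 0 passed, and 1 of these 5 measured genes, EPCAM of the epithelium list, had an unadjusted p under 0.05 by limma, at a mean log2 ratio of 0.36. Their part in the results above was not tested. These calls depended on the processing and on single arrays. Of 23 genes of all these lists that passed, 5 passed with the background fitted on all spots (SLC1A3, TNC, CDH13, S100A13 and AXL), 3 with an offset of 0, 0 with the median in place of loess and 0 with the scanner software's signals, against 22 with an offset of 20 and 22 without background correction. Without the array of FBS-free medium 10 passed, without that of IGF1 22, and without that of IGF1 with OSI906 2. All 23 kept the sign of their mean ratio under each of these alternatives. On the array of IGF1 the ratio itself moved by more than 1.5 times in several of them. With the background fitted on all spots it was 0.30 for TWIST1, 0.36 for SNAP25, -0.35 for LMNB1, 0.08 for NDRG2, 0.11 for S100A4 and 0.50 for S100A3, and in the deposited table it was 0.24, 0.33, -0.39, 0.07, 0.11 and 0.46 in this order. With the median in place of loess it was -0.28 for TNC.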

How the data were processed

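Expression was measured on 3 Agilent SurePrint G3 arrays, 1 per condition, with U87WT in Cy5 and U87Mut in Cy3. The authors deposited intensity values as scanned by Agilent Feature Extraction 12.0.3.1, per the file headers: median brightness and local background per spot and channel, with marks for outlier, saturated and above-background spots. The deposited scanner files also hold log10 ratios of processed signals, and the authors deposited a table of log2 ratios made with limma; both served as alternatives.

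The 62976 spots of each array were read with the data.table package (version 1.17.8) and corrected with limma 3.58.1 (R 4.3.3) by normexp (offset 50), fitted without spots marked as not uniform. The 2075 control spots were removed, arrays were normalized by loess and Aquantile, outlier spots were left out and spots of a probe averaged. Saturated spots numbered 0. RefSeq transcripts gave names to 34892 of 36770 probes (GRCh38.p14 table; the array header names another build, so no probe coordinates are given). A gene was read from its probe of highest mean brightness; all probes of the 10 genes are given.

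An intercept-only model of the clone difference was fitted over the 3 arrays in limma (lmFit, then eBayes) and adjusted by Benjamini-Hochberg over 58174 probes. The labels give 1 biological replicate per condition, so p-values measure the spread between arrays of different conditions. A difference past 0.5 (log2) on 1 array was called by size, without a test. The steps were tested on simulated data. The members and gene lists were chosen with earlier results of these data known. Besides the 10 genes, the text names list genes past 0.5 in the same direction on all 3 arrays, up to 3 a list, and the 3 genes nearest in ratio to VIM and CHI3L1. Other list genes are named because they complete a count of at most 5 calls or were singled out after their values were seen. Alternatives were other offsets, background fits and normalizations, the deposited table, the limit, and leaving out each array.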

Additional observations from a re-analysis of the deposited data

Results flagged for a closer look

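For VIM, OLIG2, SOX9 and CDH2, a change between conditions had opposite signs in the clones on the log2 scale. How many of all genes did so was not counted, so this cannot be read as a trait of these genes. The changes of OLIG2 and SOX9 were small, at most 0.09 in size. These differences rest on 1 array per condition and were not tested. From FBS-free medium to IGF1, the change in U87WT minus that in U87Mut was -0.86 for VIM (-0.23 against 0.62), -0.0357 for OLIG2 (-0.01 against 0.02) and 0.0648 for SOX9 (0.06 against -0.01). From IGF1 to IGF1 with OSI906 it was 0.48 for VIM (0.29 against -0.19), 0.0689 for OLIG2 (0.06 against -0.01), 0.0857 for SOX9 (0.00 against -0.09) and 0.23 for CDH2 (0.20 against -0.03). The values of OLIG2 and SOX9 come from dim spots and depend on the background offset. Those of VIM moved with the background fit and the normalization. From FBS-free medium to IGF1, VIM rose in both clones with the background fitted on all spots (0.07 in U87WT, 0.32 in U87Mut). It also rose in both with the median in place of loess (0.19 and 0.20).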

How the results depend on the processing

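The clones are paired within each array, and the test on log2 ratios uses that pairing. No paired analysis was possible between conditions, because each condition has 1 array and the replicate number 1 pairs nothing further. The number of the 10 genes called between the clones was 0 and became 1 with the background fitted on all spots, 2 with an offset of 20, 2 without background correction, 1 in the deposited table and 1 with only probes above background; VIM was called in each, and S100B where there were 2. Leaving out each array gave 0 to 1, with VIM called without the array of IGF1. Over all probes, 4905 calls became 669 with the background fitted on all spots, 452 with an offset of 0, 785 in the deposited table, 0 with the median in place of loess and 0 with the scanner software's signals, and 232 to 6033 without 1 array. At an unadjusted p under 0.05, limma gave 12290 probes, 5125 with the median and 10984 with the scanner's signals.

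The mean ratio changed sign for GFAP, -0.0329 without background correction and -0.44 with the scanner's signals, for SOX2 (-0.0232 to 0.0867 as each array was left out, lowest without IGF1 with OSI906) and for CDH2, -0.0659 with the background fitted on all spots, -0.0781 in the deposited table and -0.0242 to 0.0944 as each array was left out, lowest without IGF1 with OSI906. Of the genes past 0.5, the count of 1 became 2 in FBS-free medium with the scanner's signals, 2 in IGF1 with the median, 2 in IGF1 with OSI906 with offsets of 0 and of 20, and 0 in IGF1 and in IGF1 with OSI906 with a limit of 1. In IGF1 the count stayed 1 with the background fitted on all spots and in the deposited table, but the gene changed. It was VIM there (0.92 and 1.07) and no longer CHI3L1 (0.08 and 0.02). For changes within a clone, the 2 genes from IGF1 to OSI906 in U87WT became 1 with the median and 1 without normalization between arrays, both chosen after seeing the data, and the 2 from FBS-free medium to IGF1 in U87Mut became 1 with these and 1 with the background fitted on all spots. The cause was not tested. With the median in place of loess, the median ratio of all genes above background shifted to -0.17, 0.30 and 0.05 on the arrays of FBS-free medium, IGF1 and IGF1 with OSI906, and without normalization between arrays their change from FBS-free medium to IGF1 was -0.17 in U87WT and -0.21 in U87Mut. Relative to 0.30, the ratios of VIM and CHI3L1 in IGF1 stay positive. Brightness near background limits OLIG2, SOX9, S100B, GFAP, SOX2 and PROM1.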

Other observations

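For some list genes outside the naming rule, chosen after their values were seen, the change with IGF1 had a different size or sign in the clones; the difference was not tested. ID1, an inhibitor of basic helix-loop-helix factors, read 710.5, 635 and 523.5 in U87WT and 1032.5, 1404 and 664 in U87Mut, in FBS-free medium, IGF1 and IGF1 with OSI906. From FBS-free medium to IGF1 its log2 change was -0.25 in U87WT and 0.96 in U87Mut, and from there to OSI906 -0.01 and -1.27; with the median in place of loess, the change of U87WT with IGF1 was 0.10. FN1, the matrix protein fibronectin, read 449, 188 and 491 in U87WT and 284.5, 158 and 272 in U87Mut. Its change to IGF1 was -1.16 in U87WT and -0.34 in U87Mut, and with OSI906 it stood 1.41 and 0.53 above the level in IGF1. With the median in place of loess the changes of FN1 to IGF1 were -0.90 and -0.59, which lie closer together, and with the background fitted on all spots they were -0.97 and -0.19. FOSL2, an AP-1 factor, changed by -0.93 in U87WT and 0.29 in U87Mut with IGF1, and by 1.40 and 0.47 from there to OSI906; its change in U87Mut with IGF1 was -0.03 with the median in place of loess.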
